A study of Drosophila melanogaster with 12 samples.

Results

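Small RNAs of testes from XYYohio males of Drosophila melanogaster, which carry an added Y chromosome labelled Yohio, were compared with those of XY control males. The comparison takes 2 XYYohio and 2 XY libraries, 4 of the 12 libraries of the series. It covers every entry of the testis table that is not a spike-in, 839 of 845 entries. Each entry is a transposon, tRNA, snoRNA, satellite or other repeat read on 1 strand, with Plus and Minus for the strand of the listed entry.

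The XYYohio males were labelled with genotype XY/Yohio and the control males with genotype XY, both as testes of flies 2 days old. The labels state 2 biological replicates a group but no number of animals per library, and they do not say how the added Y was introduced or from which cross the males came. The series also holds XYYcongo testes and XX, XXYohio and XXYcongo ovaries. The deposited columns used for XYYohio are headed Cs; they were read as Yohio because the Congo and control columns are named outright, so every XYYohio value rests on that reading. The groups hold 2 libraries each. In the test of single entries, each error came from a trend fitted over all entries, not from that entry's own libraries. An entry whose groups overlap can thus still be called. In the later test of strand balance, the error came from a trend and from the entry's own libraries.

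In fly gonads, Piwi-interacting RNAs guide Piwi-family proteins to silence transposons in the germline and in the somatic cells around it. The Y chromosome is mostly heterochromatin and is rich in satellites, in transposon remnants and in the Suppressor of Stellate repeats (Suste). Small RNAs from the Suste repeats silence the X-linked Stellate genes in testis, and males that lack these repeats form Stellate protein crystals in spermatocytes. The Suste repeats also hold copies of hoppel, a DNA transposon listed here as PROTOP.

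The XYYohio libraries held 686497 and 1164314 reads on non-spike entries (replicates 1 and 2), against 589490 and 1310076 reads in the XY libraries. A deposited value is a number of whole reads times 1 factor per library, and 1 read was worth 0.822 and 0.533 in XYYohio, against 1 and 0.403 in XY. Spike-ins took 74.2% and 17.6% of all reads in the XYYohio libraries, against 51.7% and 36.2% in the XY libraries. The makeup of the spike-ins went with the replicate number: 1 of the spike-ins took 84.3% of spike-in reads in XYYohio replicate 1 and 62.1% in XY replicate 1, but 0.632% and 0.106% in XYYohio and XY replicate 2. Because the libraries of the same number share this makeup, values are also given within each number.

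Over the 618 entries with a mean value of at least 5, the XYYohio over XY ratio had a median log2 of 0.65 among replicates 1 and of -0.57 among replicates 2. It was above 0 for 503 of the 618 entries in replicates 1 and for 122 in replicates 2. The entries higher in both numbers were 112, and those lower in both were 105. Across entries the log2 ratios of replicates 1 and of replicates 2 had a Pearson correlation of 0.36, with entries that are not independent and no p given. The libraries thus shifted one way in replicates 1 and the other way in replicates 2, and the part of this shift in the differences of single entries was not tested.

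**Figure D1:**
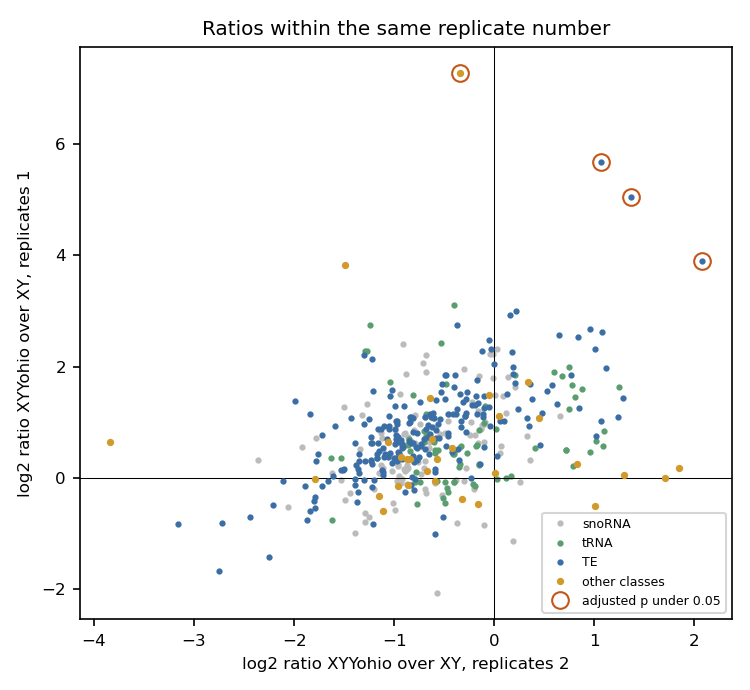
Log2 ratio of XYYohio over XY (value + 1) for replicates 1 on the vertical axis and replicates 2 on the horizontal axis, 1 point for each distinct value profile among the tested entries, with ringed points for those called. Most points lie above 0 on the vertical axis and below 0 on the horizontal one.

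The share of each class in the non-spike values did not separate the groups for any of the large classes. Small RNAs of transposons took 20.3% and 11.7% of non-spike values in XYYohio libraries, against 12.7% and 24.5% in XY libraries. Those of tRNA took 17.1% and 13.1% in XYYohio, against 10.6% and 18.8% in XY. The 45S rDNA entries, the precursor of the large ribosomal RNAs, took 49.3% and 66.2% in XYYohio, against 66.6% and 38.8% in XY. The transposon shares were interleaved between the groups, and for tRNA and 45S rDNA both XYYohio shares lay between the XY shares. The snoRNA class, which includes guides of chemical marks on ribosomal RNA, took 2.63% and 1.08% in XYYohio, against 2.01% and 1.85% in XY. Fragments of mitochondrial genes took 0.114% and 0.0713% in XYYohio, against 0.126% and 0.152% in XY, and here both XYYohio libraries lay below both XY libraries. No p-value is given for these shares, since the smallest p of a two-sided exact permutation test with 2 libraries a group is 0.333.

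**Figure D2:**
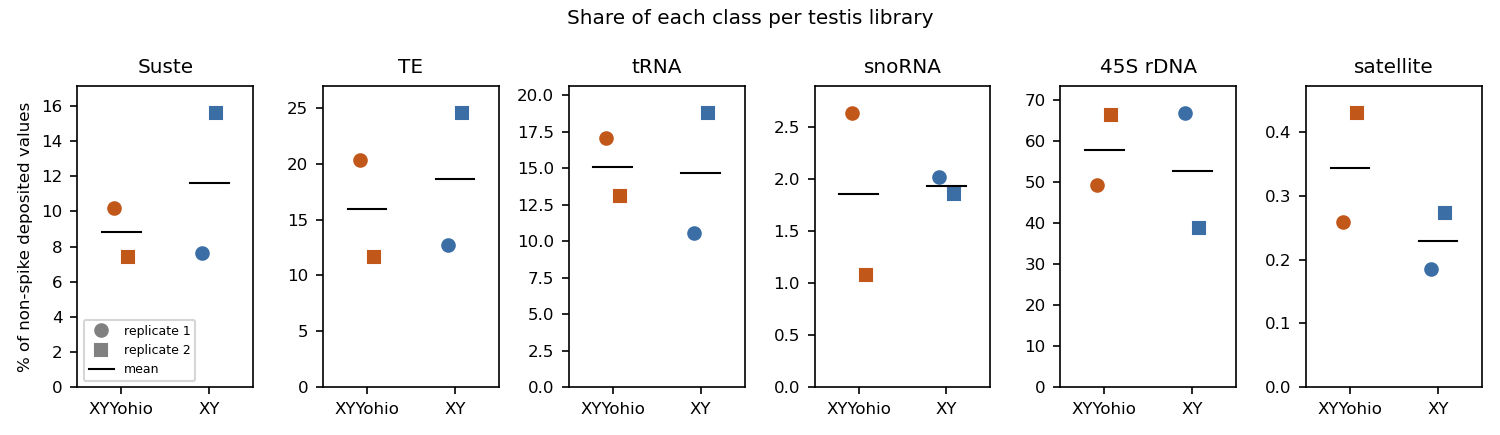
Percent of the non-spike values in each library (vertical axis) for Suste, transposons, tRNA, snoRNA, 45S rDNA and satellites, with XYYohio left of XY, circles for replicates 1, squares for replicates 2 and a line for the mean of 2. The groups overlap in every panel.

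The share of 45S rDNA varied most, so the shares were also computed without it. Transposons then took 40.1% and 34.5% in XYYohio, against 38.1% and 40.0% in XY. The tRNA share then took 33.6% and 38.7% in XYYohio, against 31.8% and 30.7% in XY, so with that denominator both XYYohio libraries lay above both XY libraries. Suste then took 20.2% and 21.9% in XYYohio, against 23.0% and 25.4% in XY, and both XYYohio libraries lay below both XY libraries. The repeat DMHMR1, listed among the transposons, lay lower too, at 10.5% and 8.30% in XYYohio, against 12.3% and 10.7% in XY. Mitochondrial genes also lay lower without overlap. Telomeric entries lay higher, at 0.144% and 0.136% in XYYohio, against 0.0743% and 0.106% in XY. The snoRNA, satellite and mitochondrial tRNA shares overlapped.

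Small RNAs of Suste, of DMHMR1 and of hoppel showed no called difference between XYYohio and XY testes. The Minus strand of Suste, the most abundant entry outside rDNA, had 55125 and 44419 normalized reads in XYYohio, against 43605 and 79771 in XY. The XYYohio values lay between the XY values, and the log2 fold change was -0.25 ± 0.57 (SE; adjusted p = 0.998, limma, Benjamini-Hochberg over 618 entries). Its Plus strand had 2548 and 1611 normalized reads in XYYohio, against 1561 and 2489 in XY, and overlapped too (log2 fold change 0.04). Of all non-spike values, Suste took 10.2% and 7.42% in XYYohio testes, against 7.66% and 15.6% in XY testes. In the ovary table, normalized apart, it took 0.528% and 0.753% in XXYohio ovaries, against 0.0691% and 0.0552% in XX ovaries, which lack a Y. Both XY testes had a larger share of Suste than both XX ovaries.

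DMHMR1 is a repeat entry that was the most abundant of the transposon class. Its Plus strand had 27597 and 16021 normalized reads in XYYohio testes, against 22859 and 32560 in XY testes. The groups overlapped (log2 fold change -0.38 ± 0.60, adjusted p = 0.998, limma). On Minus it had a log2 fold change of 0.07. In the ovary table its share was 0.189% and 0.228% in XXYohio, against 0.00947% and 0.00685% in XX.

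The 6 hoppel entries, PROTOP and its A and B variants on both strands, had a median log2 fold change of 0.02 and a range of -0.46 to 0.37. Groups overlapped for all 6. PROTOP on Plus, for example, had 6759 and 4424 normalized reads in XYYohio, against 3329 and 8651 in XY.

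The test over all entries called 4 entries higher in XYYohio testes and 0 lower, at an adjusted p under 0.05. That is 0.647% of the 618 entries higher and 0% lower, and 30 entries had an unadjusted p under 0.05. The 4 are the Plus strands of the AAGAC satellite, of TOM_I and of TABOR_I, and the Minus strand of HELENA_RT. All 4 are low in XY replicate 1, where they had 0, 0, 1 and 1 reads in that order.

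TABOR_I is the internal part of TABOR, an LTR retrotransposon of the gypsy group that is related to retroviruses. Its Plus strand had 64.9 and 19.2 normalized reads in XYYohio testes, against 1 and 6.85 in XY testes. Both XYYohio libraries lay above both XY libraries, and the log2 fold change was 3.20 ± 0.67 (SE; adjusted p = 3.46e-04, limma). Its Minus strand, which held most of the TABOR_I reads, had 368 and 203 normalized reads in XYYohio, against 186 and 368 in XY, and had a log2 fold change of 0.06.

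TOM_I is the internal part of TOM, also a gypsy-group LTR retrotransposon. Its Plus strand had 50.1 and 11.2 normalized reads in XYYohio, against 0 and 4.84 in XY, so the groups did not overlap (log2 fold change 3.37 ± 0.69, adjusted p = 3.33e-04, limma). HELENA_RT is a non-LTR retrotransposon, a LINE. Its Minus strand had 28.8 and 20.3 normalized reads in XYYohio, against 1 and 4.03 in XY. The groups did not overlap (2.99 ± 0.69, adjusted p = 0.00236, limma). The Plus strand of HELENA_RT was also without overlap, at 9.86 and 4.80 normalized reads in XYYohio, against 2 and 2.42 in XY, but was not called (log2 fold change 1.31, adjusted p = 0.772, limma).

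The Plus strand of the AAGAC satellite, a short repeat found in heterochromatin, had 153.7 and 49.6 normalized reads in XYYohio, against 0 and 63.3 in XY. The groups overlapped, and among replicates 2 the XYYohio value was the lower one. It had a log2 fold change of 3.46 ± 0.66 and an adjusted p of 8.94e-05 (limma), with the 0 of XY replicate 1 in it.

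None of the 4 calls held without XY replicate 1, where 0 entries were called, and the count without XYYohio replicate 1 was 1, which was the Minus strand of AAGAC. With any other single library left out the count was 4 to 6. DESeq2 on the recovered reads called 36 entries (5.83%; 19 higher, 17 lower), edgeR's quasi-likelihood test with the replicate number as a block 44 (7.12%; 31 higher, 13 lower), and limma with TMM scaling and the same block 37 (5.99%; 32 higher, 5 lower). TMM scaling alone, with no block, called 0 (78 at an unadjusted p under 0.05), and edgeR with no block called 0 (76). Both blocked fits were added after the data had been seen. Many of the calls in these 3 larger sets were tRNA entries, whose identical copies count separately. The tRNA entries called were 13 higher and 6 lower with DESeq2. They were 24 and 6 with edgeR and the block, and 25 and 0 with TMM and the block. The 23 entries in all 3 larger sets include tRNA-Asp copies with identical values and the Plus strand of TABOR_I, but none of the other 3. TOM_I was called by DESeq2 and HELENA_RT by both blocked fits, while DESeq2 gave HELENA_RT no adjusted p, and AAGAC was called by none of these fits.

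**Figure D3:**
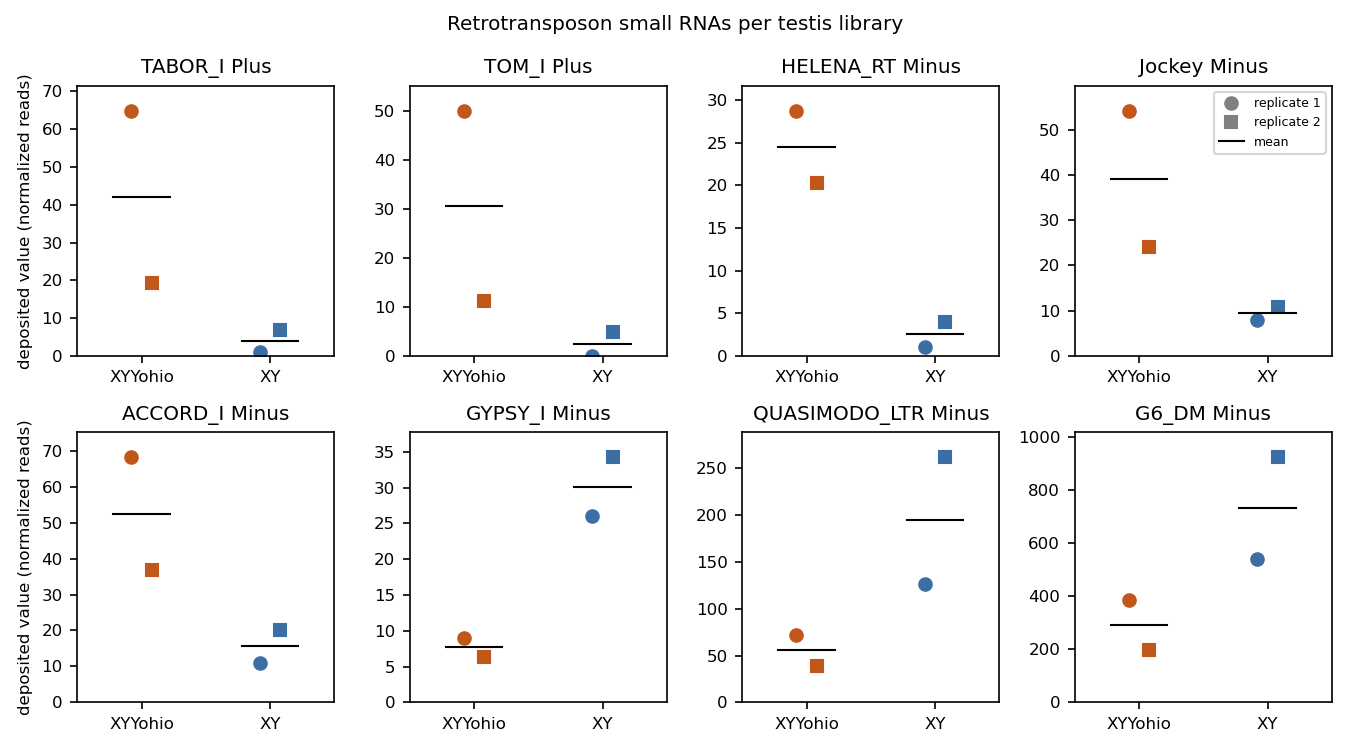
Deposited value (normalized reads, vertical axis from 0) of 8 retrotransposon entries in each testis library, with XYYohio left of XY, circles for replicates 1, squares for replicates 2 and a line for the mean of 2. The 5 entries higher in XYYohio and the 3 lower ones are without overlap between the groups.

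Without regard to the test, 83 of the 618 entries (13.4%) were higher in both XYYohio libraries than in both XY libraries, and 69 (11.2%) were lower in both. Among the highest of these after the called ones were Jockey on its Minus strand and the ACCORD family. Jockey is a LINE. Its Minus strand had 54.3 and 24.0 normalized reads in XYYohio testes, against 8 and 10.9 in XY testes, which gave a log2 fold change of 1.85 ± 0.67. Its adjusted p was 0.455 in limma and 0.033 in DESeq2, and 0.040 in edgeR with the replicate block.

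ACCORD and ACCORD2 are LTR retrotransposons of the gypsy group. ACCORD_I on Minus had 68.2 and 36.8 normalized reads in XYYohio, against 11 and 20.2 in XY (log2 fold change 1.68; adjusted p = 0.634 in limma and 0.033 in DESeq2). ACCORD2_I on Minus had 100.3 and 34.7 in XYYohio, against 16 and 21.8 in XY (1.61; adjusted p = 0.723 in limma and 0.033 in DESeq2). The XYYohio libraries lay above the XY libraries for both entries. All tested entries of ACCORD2, of HELENA_RT and of Jockey lay higher, without overlap, in XYYohio, and those of DIVER lay lower; these were the only 4 of 88 elements with at least 2 tested entries for which every tested entry was without overlap in 1 direction. The other high entries of low count were the Plus strands of ACCORD_I, ACCORD2_I, BLOOD_I, IDEFIX_LTR and R2_DM, with log2 fold changes of 1.54 to 1.81. Neither limma nor the blocked fits called them, and DESeq2 gave them no adjusted p.

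The 10 lowest fold changes without overlap were in retrotransposons of the gypsy, BEL/Pao and copia groups, a LINE, the Responder satellite, 2 snoRNA entries and the repeat ARS406_DM. On Plus, ARS406_DM had the lowest (-2.21), with 2.47 and 1.07 normalized reads in XYYohio, against 10 and 12.9 in XY. GYPSY_I is the internal part of gypsy, an LTR element active in the somatic cells of the gonad. Its Minus strand had 9.04 and 6.40 normalized reads in XYYohio, against 26 and 34.3 in XY, and lay below XY in both numbers (log2 fold change -1.84; adjusted p = 0.455 in limma and 0.033 in DESeq2). The Minus strand of QUASIMODO_LTR, of the same group, had 72.3 and 38.9 normalized reads in XYYohio, against 127 and 262 in XY (-1.76 ± 0.67; adjusted p = 0.582 in limma). DESeq2 and both blocked fits called it lower. QUASIMODO_I is the internal part of QUASIMODO. Its Minus strand overlapped, at 510 and 286 normalized reads in XYYohio, against 204 and 334 in XY.

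The Minus strand of G6_DM, a LINE, had 385 and 199 normalized reads in XYYohio, against 540 and 926 in XY, with both XYYohio libraries below both XY ones (-1.35; adjusted p = 0.772 in limma and 0.00228 in DESeq2). Of the copia group, the Plus strand of COPIA2LTR_DM had 110 and 103 normalized reads in XYYohio, against 186 and 382 in XY, and its log2 fold change was -1.31. That of COPIA2I_DM had 126 and 72.5 in XYYohio, against 190 and 263 in XY (-1.22). DESeq2 and both blocked fits called both lower. COPIA_DM_I, the internal part of copia itself, had on Plus 1056 and 530 normalized reads in XYYohio, against 264 and 466 in XY, so the groups did not overlap (1.09). It was called higher by DESeq2 and by both blocked fits, and not by limma on deposited values (adjusted p = 0.880).

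RSP is the Responder satellite, a repeat of the second chromosome that is the target of a male meiotic drive system. Its Minus strand had 16.4 and 7.46 normalized reads in XYYohio testes, against 30 and 74.6 in XY testes. Both XYYohio libraries lay below both XY libraries (-1.99 ± 0.67; adjusted p = 0.380 in limma and 0.033 in DESeq2), and neither blocked fit called it. ROO_LTR, of the BEL/Pao group, had on Plus 18.1 and 8.00 in XYYohio, against 30 and 48.0 in XY (-1.57; adjusted p = 0.772 in limma and 0.0445 in DESeq2), and neither blocked fit called it.

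By group of elements, most medians lay near that of all tested entries, which was 0.04 and lay between -0.05 and 0.15 under the 7 scalings tried. For the counts without overlap below, the shares over all 618 tested entries were 13.4% higher and 11.2% lower. The gypsy group had a median log2 fold change of 0.05 over 94 tested entries, with 2 called higher and with 15 entries higher and 6 lower without overlap. The mdg1 and mdg3 group had a median of -0.10 over 25, with 1 higher and 4 lower, and the copia group -0.01 over 13, with 2 and 2. LINE elements had a median of 0.06 over 36, with 5 higher and 2 lower. DNA transposons with terminal inverted repeats had a median of 0.02 over 16, with 1 and 2. The BEL/Pao group had a median of -0.27 over 20, with 3 higher and 7 lower. Its median lay between -0.36 and -0.16 under these scalings, but was 0.45 among replicates 1 and -1.06 among replicates 2.

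Elements chosen for the somatic cells of the gonad, such as GYPSY, ZAM, IDEFIX and TABOR, had a median of 0.03 over 33 tested entries. Those chosen for the germline, such as HETA, DOC and ROO, had a median of 0.04 over 20. All tested entries had 0.04. In bulk tissue, fewer cells of a type and less RNA per cell cannot be told apart.

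**Figure D4:**
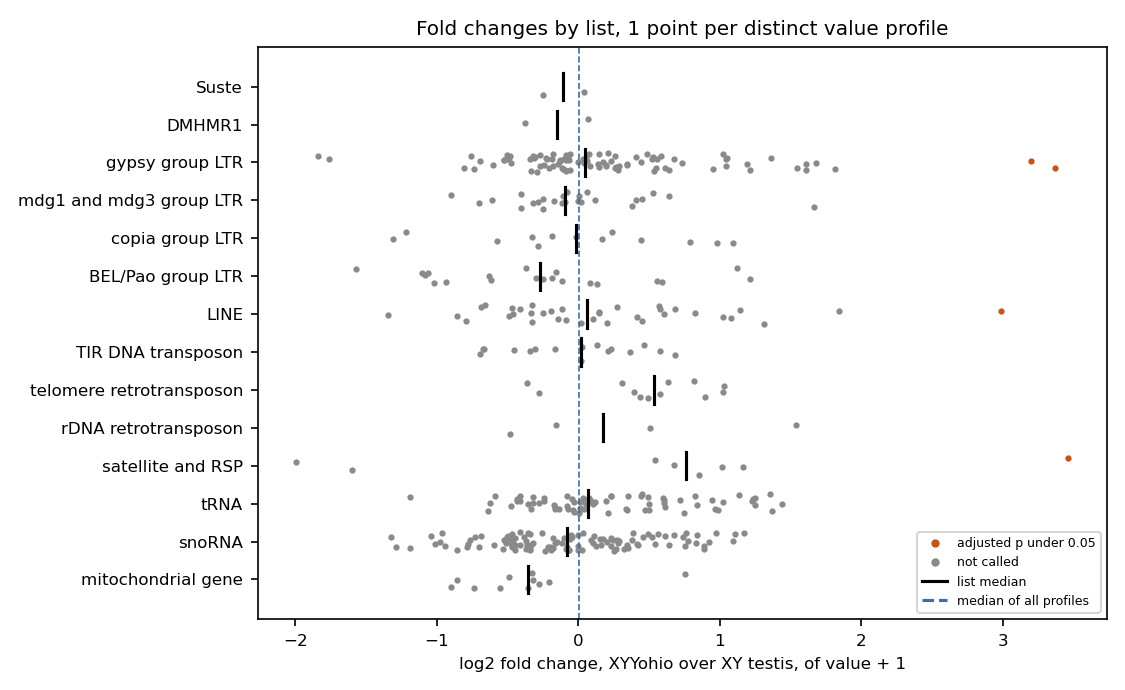
Log2 fold change of XYYohio over XY testes (value + 1, horizontal axis) by list, 1 point for each distinct value profile, with a black line for the list's median and a dashed line for the median of all profiles. Most lists spread around 0; the coloured points are the 4 called entries.

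Telomere retrotransposons, which maintain the chromosome ends of flies in place of telomerase, had a median log2 fold change of 0.61 over 14 tested entries, and of 0.54 over their 12 distinct value profiles. Of the profiles 5 were higher without overlap and 0 were lower, where 13.4% of all tested entries were higher and 11.2% lower, and none was called by limma (0 at an unadjusted p under 0.05). The median stayed between 0.52 and 0.71 under the 7 scalings. It came mainly from replicates 1, where the median ratio was 1.42, against -0.19 among replicates 2. TART on Plus had 267 and 145 normalized reads in XYYohio, against 100 and 111 in XY (0.89; adjusted p = 0.959, limma), with both XYYohio libraries above both XY ones. TART on Minus had 520 and 324 in XYYohio, against 220 and 419 in XY, and overlapped (0.43). The Plus strands of TART_B1 and TAHRE had log2 fold changes of 1.02 and 0.82 without overlap, and HETA had 0.31 on Plus and 0.49 on Minus with overlap.

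Of the elements that insert into rDNA, R1_DM overlapped between the groups on both strands, with log2 fold changes of -0.48 on Plus and -0.16 on Minus. R2_DM on Plus had 6.58 and 6.40 normalized reads in XYYohio, against 0 and 5.64 in XY, and did not overlap, while its Minus strand did (0.51). The Plus strand of 45S rDNA had 277417 and 410432 normalized reads in XYYohio, against 392612 and 204538 in XY, with interleaved values (0.25). On Minus, 45S rDNA had 753 and 378 in XYYohio, against 268 and 392 in XY (0.72). 5S_DM on Plus, the 5S ribosomal RNA repeat, was without overlap, at 6743 and 7501 normalized reads in XYYohio, against 4005 and 3697 in XY (0.89; adjusted p = 0.920, limma). Its Minus strand was lower without overlap, at 59.2 and 35.7 in XYYohio, against 71 and 67.3 in XY (-0.58; adjusted p = 0.998, limma).

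Of the satellites, AAGAG on its Minus strand was the most abundant, with 1202 and 2137 normalized reads in XYYohio, against 1006 and 1203 in XY. The XYYohio value of replicate 1 lay just inside the XY range (log2 fold change 0.54). The Minus strand of AAGAGAG had 26.3 and 331 in XYYohio, against 23 and 91.5 in XY (1.01; adjusted p = 0.891, limma), and the Plus strand of AATAGAC had 55.9 and 49.0 in XYYohio, against 54 and 19.4 in XY (0.67). Both overlapped. The entry with the longest repeat unit, on Minus, had 11.5 and 0 in XYYohio, against 7 and 13.3 in XY, and overlapped with a negative fold change (-1.60; adjusted p = 0.772, limma).

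Small RNAs of tRNA genes had a median log2 fold change of 0.20 over 242 tested entries and of 0.07 over the 74 distinct value profiles, since identical gene copies share reads. No tRNA entry was called by limma on the deposited values (10 at an unadjusted p under 0.05). Without overlap, 35 entries (11 profiles) were higher and 24 (9 profiles) lower, where 13.4% of all tested entries were higher and 11.2% lower. The 14 entries of tRNA-Asp with anticodon GTC, in 3 profiles, were all higher. The most common profile had 104 and 80.0 normalized reads in XYYohio, against 34 and 43.1 in XY. Its log2 fold change was 1.23 ± 0.66, and the fold changes of the 14 entries lay between 1.23 and 1.25. The median ratio was 1.59 among replicates 1 and 0.88 among replicates 2, and DESeq2 called 13 of the 14, edgeR with the block 13 and TMM with the block 14.

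Proline tRNA is given by anticodon, with no test between anticodons. The 7 entries of tRNA-Pro with anticodon AGG, 1 profile, had 289 and 542 normalized reads in XYYohio, against 72 and 324 in XY (1.37; adjusted p = 0.772, limma). The groups overlapped, but both replicate numbers were higher, and both blocked fits called all 7 while DESeq2 called 0. Of the 5 entries with anticodon CGG both blocked fits called 4 and DESeq2 called 0, with log2 fold changes of 0.99 to 1.25 over the 5. The 5 entries with anticodon TGG, the most abundant, had -0.32 and overlapped.

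In tRNA-Trp with anticodon CCA, the 6 tested entries (1 profile) had 88.0 and 54.9 normalized reads in XYYohio, against 149 and 171 in XY. Both XYYohio libraries lay below both XY libraries (-1.19 ± 0.67; adjusted p = 0.772 in limma, 0.033 in DESeq2, 0.043 in edgeR with the block and 0.062 in limma with TMM and the block). Of the 10 tRNA-Tyr entries 9 (6 of 7 profiles) were lower without overlap, with log2 fold changes from -0.63 to -0.24 over the 10. They rest on few reads: summed over the 10 entries, 74.0 and 61.8 normalized reads in XYYohio, against 84 and 104.8 in XY. All 6 entries of tRNA-Gly with anticodon TCC were higher without overlap, with log2 fold changes of 1.03 and 1.44 for their 2 profiles. Of the 12 tRNA-Gln entries 6 (4 of 6 profiles) were higher without overlap, with log2 fold changes between 0.47 and 0.84 over the 12. Among all tested entries 13.4% were higher and 11.2% lower without overlap.

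Fragments of snoRNA genes had a median log2 fold change of -0.08 over 115 tested entries, with 10 higher and 11 lower without overlap and none called by limma (0 at an unadjusted p under 0.05). Over all tested entries 13.4% were higher and 11.2% lower. Box C/D snoRNAs, which guide 2′-O-methylation, had a median of 0.17 over the 63 entries recognised by their symbol. Box H/ACA snoRNAs, which guide pseudouridylation, had a median of -0.45 over 33. The median ratio of box C/D entries was 0.81 among replicates 1 and -0.59 among replicates 2, and that of box H/ACA entries 0.17 and -0.87. The Plus strand of snoRNA:Me28S-G2173 had 203 and 97.0 normalized reads in XYYohio, against 40 and 95.2 in XY (1.17; adjusted p = 0.772, limma). At the low end, snoRNA:Or-aca4 on its Minus strand had 7.40 and 2.13 in XYYohio, against 11 and 12.1 in XY (-1.29), and snoRNA:Psi28S-2566 had 3.29 and 3.20 in XYYohio, against 17 and 5.24 in XY (-1.32). Both rest on few reads, and DESeq2 gave neither an adjusted p.

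Of the 11 tested mitochondrial gene entries, 6 were lower and 1 was higher without overlap, where 11.2% of all tested entries were lower and 13.4% higher. The median was -0.36 and lay between -0.44 and -0.25 under the 7 scalings; it was -0.13 among replicates 1 and -0.86 among replicates 2. On Plus, mt:CoI, a cytochrome oxidase subunit, had 219 and 168 normalized reads in XYYohio, against 239 and 306 in XY (-0.49; adjusted p = 0.998, limma). On Plus, mt:CoII, another subunit, had 107 and 75.7 in XYYohio, against 134 and 169 in XY (-0.74). Both XYYohio libraries lay below both XY libraries for both genes.

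The balance of the strands within an entry does not depend on the scaling between libraries, apart from the 1 added to each value. It was tested apart, as log2(Plus + 1) minus log2(Minus + 1). Where a strand has few reads, the scaling can thus still enter. Of 152 entries with a mean of at least 10 over both strands, 21 (13.8%) were called: 17 had a higher Plus share in XYYohio and 4 a lower one. Without overlap were 81 of the 152 (53.3%). Of the 21 called, 13 were copies of tRNA-Lys with anticodon CTT that share 1 profile, which leaves 5 profiles with a higher Plus share and 4 with a lower one. With the replicate number as a block, 7 entries were called, 3 with a higher Plus share and 4 with a lower one: HELENA_RT joined, and POGO, TAHRE and the tRNA-Lys copies were no longer called.

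In copia, COPIA_DM_I held 47.7% and 41.3% of its normalized reads on Plus in XYYohio, against 21.1% and 19.1% in XY. Both XYYohio libraries lay far above both XY libraries, and the log2 change of the Plus over Minus ratio was 1.67 ± 0.25 (SE; adjusted p = 0.0233, limma). COPIA2LTR_DM went the other way, with 68.0% and 68.3% on Plus in XYYohio, against 90.3% and 92.6% in XY (-2.29 ± 0.35; adjusted p = 0.0233, limma). COPIA2I_DM, the internal part of the same element, held 21.5% and 20.03% on Plus in XYYohio, against 46.6% and 37.5% in XY (-1.46; adjusted p = 0.0233, limma).

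QUASIMODO_LTR held 22.8% and 31.1% on Plus in XYYohio, against 7.30% and 6.07% in XY (2.30; adjusted p = 0.0233, limma), with fewer Minus reads and more Plus reads than in XY. TABOR_I held 15.0% and 8.63% on Plus in XYYohio, against 0.535% and 1.83% in XY (3.14 ± 0.60; adjusted p = 0.0233, limma), where the Minus strand itself overlapped between the groups. HOBO and POGO are DNA transposons with terminal inverted repeats. HOBO held 57.6% and 56.8% on Plus in XYYohio, against 77.9% and 74.7% in XY (-1.25; adjusted p = 0.0233, limma). POGO held 9.49% and 10.3% on Plus in XYYohio, against 23.0% and 21.1% in XY (-1.35; adjusted p = 0.0233, limma). TAHRE, a telomere element, held 55.2% and 52.1% on Plus in XYYohio, against 33.3% and 30.6% in XY (1.18, adjusted p = 0.0305, limma). These rest on few reads, with 13.2 and 13.3 normalized reads on Plus and 10.7 and 12.3 on Minus in XYYohio. In XY, TAHRE had 4 and 12.1 on Plus and 8 and 27.4 on Minus.

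The tRNA-Lys copies had 1 profile, with 98.7% and 98.8% on Plus in XYYohio, against 95.8% and 96.2% in XY (1.33; adjusted p = 0.0233, limma); only 1.64 and 1.60 normalized reads per copy were on Minus in XYYohio, against 3 and 5.64 in XY. The log2 Plus over Minus ratio of the AAGAC satellite differed by 2.61 and was not called; XY replicate 1 had 0 reads on both its strands. That of RSP differed by 2.38 and was not called either. Suste held 4.42% and 3.50% on Plus in XYYohio, against 3.46% and 3.03% in XY. The groups did not overlap, but the log2 change of the ratio was 0.29 and was not called (adjusted p = 0.663, limma). No entry was called without XYYohio replicate 1 or without XY replicate 1, and without XYYohio replicate 2 the 1 entry called was the AAGAC satellite. The changes themselves stayed of like size: without XYYohio replicate 1 the log2 change was 1.48 for COPIA_DM_I, -2.28 for COPIA2LTR_DM and 2.61 for QUASIMODO_LTR, and without XY replicate 1 it was 1.76, -2.51 and 2.47 in the same order. The XYYcongo testes share the XY controls. In XYYcongo, COPIA_DM_I held 41.2% and 41.1% on Plus, POGO 9.75% and 11.6%, and TAHRE 21.7% and 27.7%. TABOR_I held 19.2% and 8.98% there, QUASIMODO_LTR 13.4% and 19.7%, and HOBO 62.6% and 63.4%. COPIA2LTR_DM held 74.1% and 84.5%, COPIA2I_DM 29.1% and 26.0%, and the tRNA-Lys copies 95.7% and 94.3%. TAHRE and the tRNA-Lys copies lay below both XY libraries in XYYcongo, and the other entries lay on the side seen in XYYohio.

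**Figure D5:**
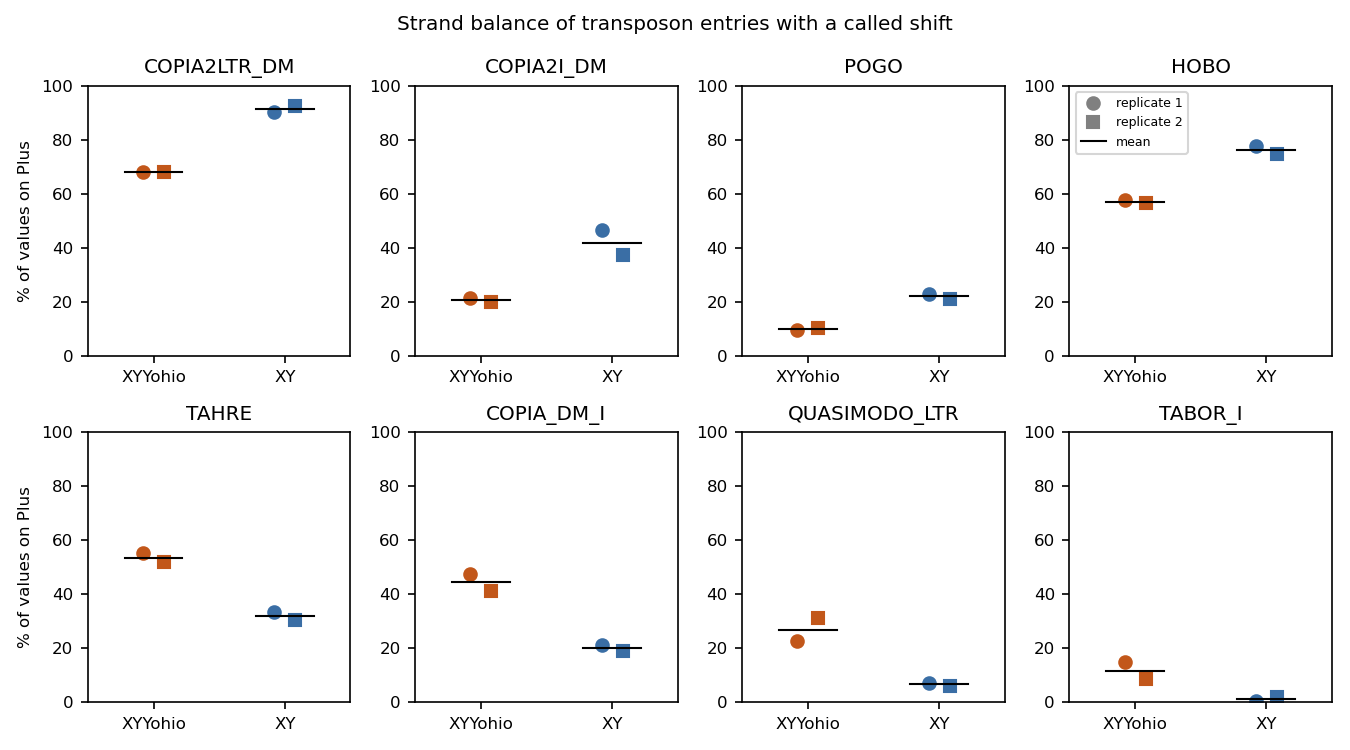
Percent of an entry's normalized reads on the Plus strand (vertical axis, 0 to 100) in each testis library for the 8 transposon entries with a called change of strand balance, with XYYohio left of XY, circles for replicates 1, squares for replicates 2 and a line for the mean of 2. COPIA2LTR_DM, COPIA2I_DM, POGO and HOBO lie lower in XYYohio, and the other 4 higher, without overlap.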

How the data were processed

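Small RNA libraries of testes were taken from the authors' deposited testis table, and the XXYohio and XX ovary libraries from the ovary table for side-by-side values only. Trim Galore and Bowtie 1.1.1 were used per the submitters' processing notes. Not given in the sources used here: genome build, annotation, how multi-mapping reads were counted, and what set the factors. The deposited values of XY replicate 1 and XX replicate 1 were whole read counts, and those of the other libraries a normalized signal deposited by the authors, equal to whole reads times 1 factor per library: 100% came out whole within 0.01 of a read. Names came from the BDGP6.54 annotation, for 495 of 495 FlyBase identifiers. A deposited p-value column was not used.

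Tested entries had a mean of 5 or more in the 6 testis libraries. The test was limma's eBayes with trend (limma 3.58.1, R 4.3.3) on log2(value + 1), with the 3 genotypes in 1 model, 3 residual degrees of freedom, two-sided, Benjamini-Hochberg over 618 entries (446 profiles). Fold changes are on that scale, which understates low entries, and their error came from the trend alone (prior degrees of freedom infinite). For the strand balance the prior degrees of freedom were 3.09. DESeq2 1.42.0 and edgeR 4.0.16 were run on recovered reads. Same-numbered libraries were treated as pairs in a block: their deviations from the group means correlated at 0.35 to 0.41 over 618 entries, for 3 pairs of groups. Named entries are those called, the 10 highest and 10 lowest without overlap, a set list of Y-linked, telomere, rDNA, satellite and abundant entries, and the 5 largest strand changes; COPIA_DM_I, 5S_DM, mitochondrial, tRNA and snoRNA examples, and entries called by another tool, were picked after their values were seen. The entries, lists and tests were chosen with earlier results of these data known. Scripts were tested on simulated data.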

Additional observations from a re-analysis of the deposited data

Results flagged for a closer look

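Of the named entries, 5 lay without overlap in one direction between XYYohio and XY testes and in the other between XXYohio and XX ovaries. BLOOD_I Plus barely separated in ovary, with 929.1 and 860.7 normalized reads in XXYohio, against 970 and 930.0 in XX. The tables were normalized apart, so the difference was not tested. The log2 fold changes of testis and ovary, in that order, were 1.66 and -0.09 for BLOOD_I Plus, -1.32 and 0.54 for snoRNA:Psi28S-2566 Plus, 0.89 and -1.55 for TART Plus, 1.85 and -0.21 for Jockey Minus, and -1.76 and 0.25 for QUASIMODO_LTR Minus.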

How the results depend on the processing

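Entries called higher, 4 in the reported fit, were 2 with a mean of at least 20, 0 with TMM, median-of-ratios, snoRNA total, spike-in total or total without rDNA scaling and with edgeR, 19 with DESeq2, 32 with TMM and the replicate block, and 31 with edgeR and the replicate block. Leaving out 1 library gave 0 to 6. Entries called lower, 0 in the reported fit, were 17 with DESeq2, 5 with TMM and the replicate block and 13 with edgeR and the replicate block. The replicate block alone, on deposited values, gave 4 higher and 0 lower. Identical tRNA copies enter these counts separately. The tRNA median ran from -0.18 to 0.61 and the snoRNA median from -0.65 to 0.54 when 1 library was left out. The tRNA share difference was 4.96 points without 45S rDNA, against 0.40 with it. Strand balance calls to Plus, 17 in the reported fit, were 4 with a pseudocount of 5, 3 with the replicate block, and 0 to 19 without 1 library; calls to Minus, 4 in the reported fit, were 0 to 6. The cause was not tested. Of 69 named entries, 16 changed sign without XY replicate 1 and 0 with TMM scaling. With 2 libraries a group, depths from 589490 to 1310076 reads and overlapping shares of the large classes, small changes were not detectable.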
